A study of Mus musculus with 6 samples.

Results

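Bone morphogenetic protein (BMP) signalling was followed through 10 genes in C2C12, an established mouse myoblast line that fuses into myotubes when induced to differentiate. They are the ligands Bmp2, Bmp4 and Bmp6, the receptors Bmpr1a, Bmpr2 and Acvr1, the Smads Smad6, Smad7 and Smad9, and the secreted antagonist Grem1. The genes were chosen by name, and every array probe whose transcript accession matched one of them was taken, which gave 12 of the 39429 probes on the array. Acvr1 and Bmp4 had 2 probes each and the other genes 1. An siRNA that targets lncMGPF, a long noncoding RNA, had been transfected into 3 samples (si-lncMGPF), and the other 3 carried the siRNA labelled NC (si-NC). Total RNA came from all 6, with differentiation induced for 2 days, and was read on 1-colour expression arrays, so the comparison asks what the knockdown changes during early myotube formation. No probe carried the name lncMGPF in the sources used here, and the level of the target was therefore not checked. All samples come from 1 cell line. Separate cultures are not stated for the replicates, and the p-values therefore cover the spread among these 6 samples alone, some of which may be technical.

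BMPs are secreted ligands of the transforming growth factor beta family. They bring together type I receptors, such as Bmpr1a and Acvr1, and type II receptors, such as Bmpr2, which phosphorylate Smad1, Smad5 and Smad9. These enter the nucleus with Smad4 and switch on target genes, among them Id1, Id2, Id3 and the inhibitory Smads Smad6 and Smad7, which in turn dampen the pathway. C2C12 cells are a common model of it, because BMP2 added to them blocks myotube formation and turns them towards the osteoblast lineage. Smad9 is a receptor-activated Smad, not an inhibitory one.

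Promoter sequence was printed for the tested genes with a promoter entry used here whose groups of arrays did not overlap, Smad6 and Bmpr2. It was also printed for Grem1, the only tested single-probe member with a positive change. The entries are those of RefSeq, build GRCm38.p6, given for 8 of the 10 genes, and each run below is the 250 bases before the annotated start, 5′ to 3′. Smad6 lies at chr9:64022060-64022309 on the minus strand, Bmpr2 at chr1:59764029-59764278 on the plus strand and Grem1 at chr2:113758649-113758898 on the minus strand. Capitals mark GGCGCC, a GC-rich palindrome known to bind BMP-activated Smads.
Smad6: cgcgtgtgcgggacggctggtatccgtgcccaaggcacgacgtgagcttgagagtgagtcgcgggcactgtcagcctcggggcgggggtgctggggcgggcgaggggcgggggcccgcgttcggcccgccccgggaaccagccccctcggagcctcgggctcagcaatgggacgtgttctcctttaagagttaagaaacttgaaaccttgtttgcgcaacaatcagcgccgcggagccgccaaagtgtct
Bmpr2: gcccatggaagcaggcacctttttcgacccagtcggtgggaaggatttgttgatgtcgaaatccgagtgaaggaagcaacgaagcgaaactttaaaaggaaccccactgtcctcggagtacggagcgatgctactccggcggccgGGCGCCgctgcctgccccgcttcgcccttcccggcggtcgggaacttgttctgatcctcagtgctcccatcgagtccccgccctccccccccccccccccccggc
Grem1: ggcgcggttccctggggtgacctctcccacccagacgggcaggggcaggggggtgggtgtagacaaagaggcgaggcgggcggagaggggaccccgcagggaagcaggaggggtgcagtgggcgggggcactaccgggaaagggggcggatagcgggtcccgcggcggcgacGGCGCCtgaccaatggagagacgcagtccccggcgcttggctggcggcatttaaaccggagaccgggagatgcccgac
GGCGCC, which reads the same on both strands, was found in 4 of the 8 member promoters (Bmpr1a, Bmpr2, Smad9 and Grem1) and in 9.59% of the 32851 promoters of the table over the same length. The member promoters were GC-rich, at 63.2% to 85.6% against a median of 52.4% over the table, and the part of GC content in the motif counts was not tested. It lay 105 bases before the start in Bmpr2 and 78 bases before it in Grem1, and these letters were not in the Smad6 window. The palindromic Smad box GTCTAGAC was in 0 of the 8 windows and in 0.167% of all. The short Smad box GTCT, counted on both strands, was in 6 of the 8 windows and in 82.9% of all. The E box CAGCTG of myogenic factors was in 0 of the 8 and in 13% of all. These matches describe the sequence and show no binding.

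One scan identifier (slide 1) covered si-lncMGPF replicate 1 together with all si-NC arrays, and another (slide 2) covered si-lncMGPF replicates 2 and 3. Slide 2 was dimmer, with a 75th percentile of signal of 492.1 to 580.2 intensity units against 688.2 to 930.7 on slide 1, and its negative control spots read higher, at 37.3 and 42.5 against 20.1 to 21.8. Correlations of log2 signal over all probes were 0.992 to 0.995 between arrays of 1 slide and 0.976 to 0.984 between slides. Changes are therefore also given for si-lncMGPF replicate 1 against si-NC within slide 1, and for si-lncMGPF replicates 2 and 3 on slide 2, with si-NC subtracted in both. Slide 2 holds no si-NC array, so a fit with slide as a fixed block returns the slide 1 change, which rests on 1 si-lncMGPF array. With slide as a random block the log2 change of Grem1 was 0.15 and that of Bmpr1a -0.28. All 9 muscle markers examined, among them Myog and Ckm, were well above background on all 6 arrays. Of the osteoblast markers Sp7 and Ibsp were above it on none and Alpl on 1, while Phex and Dmp1 were above it on all 6. None of the 23 tested markers passed, but 5 had an unadjusted p below 0.05, where 14.2% of named genes did. These were Myf5, a factor of undifferentiated myoblasts, with a log2 change of -1.20 (-0.21 within slide 1, -1.69 for slide 2), the fibroblast marker Lum with -0.54, the muscle actin gene Actc1 with 0.27, Phex with 0.45 and Dmp1 with -0.26 (limma, adjusted p from 0.191 to 0.279). Markers of 1 kind went both ways, except for adipocytes, where both tested markers, Fabp4 (0.23) and Pparg (0.05), were positive. Of the 9 muscle markers 6 were positive and 3 negative, the latter Acta1 (-0.30), Tnnt3 (-0.26) and Myh3 (-0.15). Of the 5 markers of dividing or undifferentiated myoblasts 3 were positive and 2 negative. Of the 3 tested fibroblast markers 2 were negative and 1, Pdgfra, was positive (0.11). The part of these markers in the members' values was not tested.

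Of the 12 probes 8, for 7 genes, were well above background on all 6 arrays and were tested, and none passed at an adjusted p below 0.05 (limma, Benjamini-Hochberg over 24661 probes, of which 0.105% passed). At an unadjusted p below 0.05 stood 2 of the 8, those of Smad6 and Smad7, both with negative changes, where 15.8% of all tested probes did so in either direction and 9.43% with a negative change. For 3 of the 8, Smad6, Smad7 and Bmpr2, all si-lncMGPF arrays lay below all si-NC arrays. Of all tested probes 23.0% had groups without overlap, 13.4% with si-lncMGPF lower. Over the 7 genes, with the brighter probe standing for Acvr1, the median log2 change was -0.15 (4 negative, 3 positive), against 0.02 over the 14265 named genes tested. Values below are log2 of the signal over the array's 75th percentile, and changes are si-lncMGPF minus si-NC on that log2 scale. Levels of different probes cannot be compared on this scale.

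**Figure D1:**
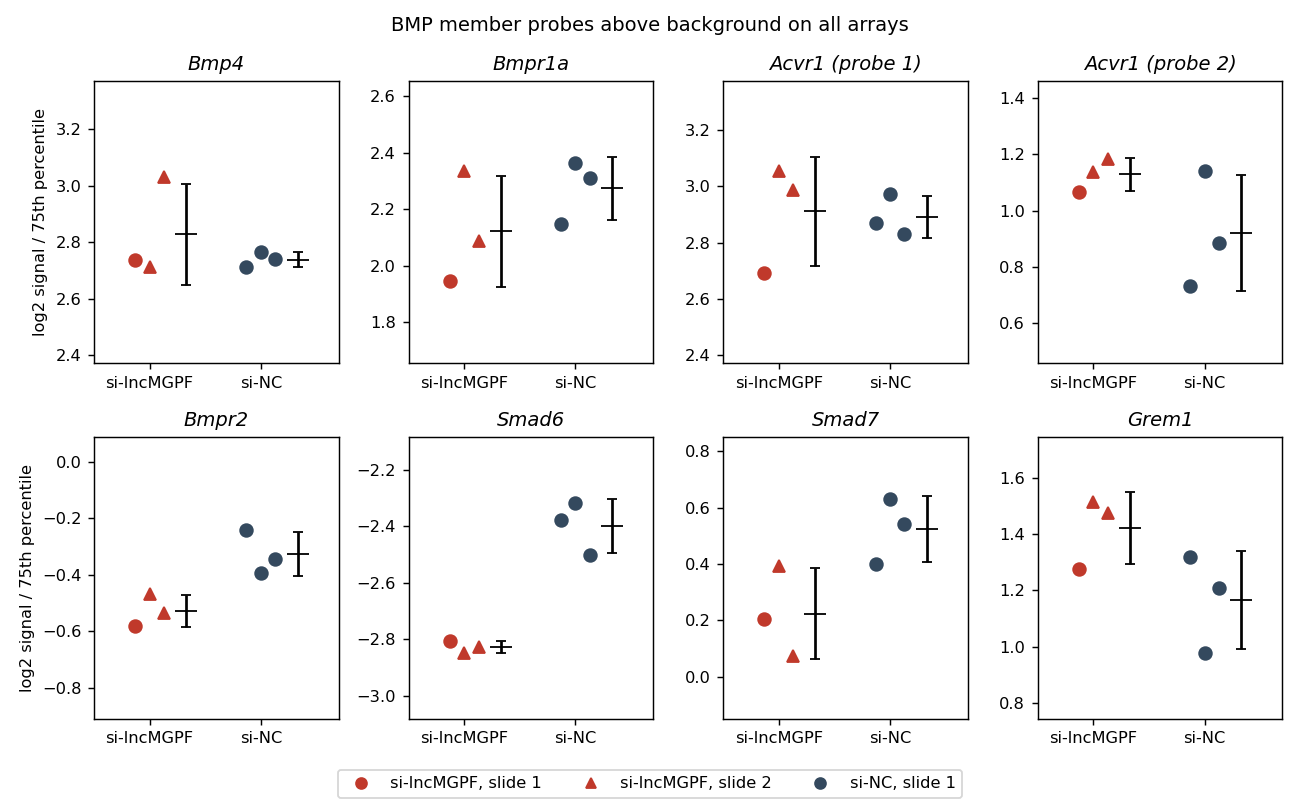
Normalised log2 signal (log2 of signal over the array's 75th percentile) of the 8 BMP member probes above background on all arrays. Each point is 1 array, circles are slide 1 and triangles slide 2, and the bar beside each group is its mean with SD (n = 3). Every panel spans 1 log2 unit. Acvr1 probe 1 is the brighter one. The si-lncMGPF points lie below all si-NC points for Smad6, Smad7 and Bmpr2 and overlap them in the other panels.

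Smad6, which blocks type I BMP receptors and can bind Smad1 in place of Smad4, had the largest change of the 8 probes. Its level was -2.81, -2.85 and -2.83 in si-lncMGPF replicates 1, 2 and 3, against -2.38, -2.32 and -2.50 in si-NC replicates 1, 2 and 3. The 3 si-lncMGPF arrays lay close together below all si-NC arrays. The log2 change was -0.43 (SE 0.09, 95% interval -0.64 to -0.22, limma, adjusted p = 0.183), which is 25.8% less signal in si-lncMGPF. It was -0.41 within slide 1 and -0.44 for the slide 2 arrays, so the array on the si-NC slide and those on the other slide gave like values. In deposited processed signal the probe read 132, 80.6 and 69.3 units in si-lncMGPF and 179, 138 and 133 units in si-NC. These raw units are not scaled for the dimmer slide 2. With normexp background correction the log2 change of Smad6 was -0.17 (adjusted p = 0.426), with -0.29 within slide 1 and -0.11 for slide 2, and the groups still did not overlap. Without si-lncMGPF replicate 1, where all remaining si-lncMGPF arrays are on slide 2 and slide cannot be told apart from group, Smad6 passed with a log2 change of -0.44 (limma, adjusted p = 0.0257). Over all 17 alternatives the adjusted p of Smad6 ranged from 0.0257 to 0.645.

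Smad7, the inhibitory Smad that acts on both BMP and TGF-beta receptors, had levels of 0.21, 0.39 and 0.07 in si-lncMGPF against 0.40, 0.63 and 0.54 in si-NC. The si-lncMGPF arrays were all lower, but replicate 2 lay almost level with si-NC replicate 1. The log2 change was -0.30 (SE 0.12, 95% interval -0.58 to -0.02, limma, adjusted p = 0.291), or 18.8% less signal. The slide 1 and slide 2 values were again alike, at -0.32 and -0.29. After normexp the log2 change of Smad7 was -0.32 (adjusted p = 0.339). The difference between the changes of Smad6 and Smad7 was not tested.

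Smad9, the receptor-activated Smad in the list, was near background. It was well above background on si-lncMGPF replicate 1 and si-NC replicate 2 alone. Its processed signal was 19.7, 13.9 and 11.6 units in si-lncMGPF replicates 1, 2 and 3, against 15.2, 12.5 and 7.25 units in si-NC. The ranges overlap in these raw units, which are not scaled for the dimmer slide 2. Scaled to log2, the si-lncMGPF arrays lay above all si-NC arrays, at -5.55, -5.39 and -5.41 against -5.93, -5.79 and -6.70. Most of these readings were not well above background, so no change is given and no test was made.

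**Figure D2:**
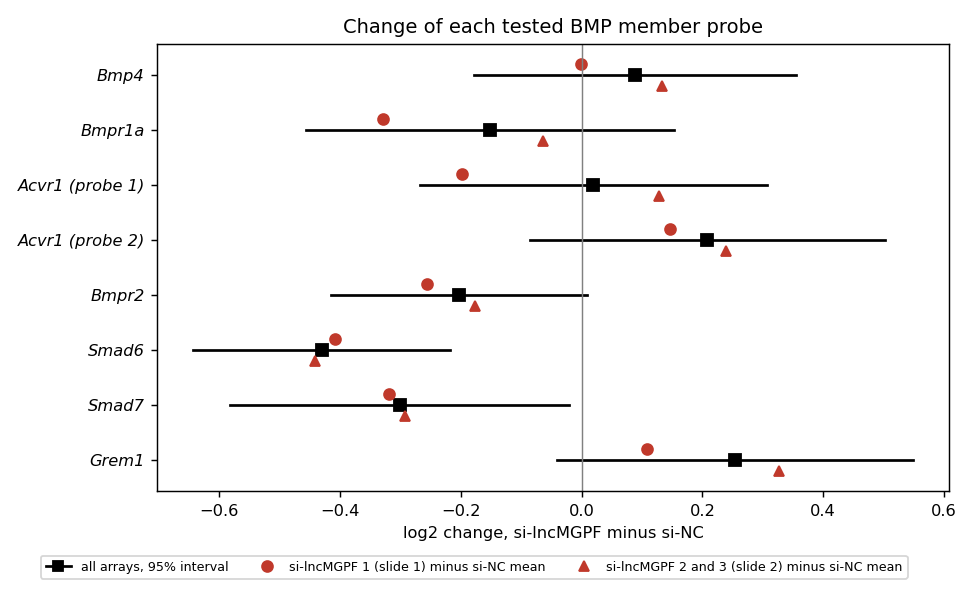
Log2 change (si-lncMGPF minus si-NC) of each tested probe, with the 95% interval from limma over all 6 arrays (squares and lines). Circles give si-lncMGPF replicate 1 and triangles the mean of replicates 2 and 3, each minus the si-NC mean. For Smad6 the squares, circles and triangles fall between -0.44 and -0.41, while for the brighter Acvr1 probe the circle (-0.20) and the triangle (0.13) lie on opposite sides of 0.

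Among the receptors, Bmpr2, the type II receptor dedicated to BMPs, had levels of -0.58, -0.47 and -0.53 in si-lncMGPF against -0.24, -0.39 and -0.34 in si-NC. All 3 si-lncMGPF arrays were lower. The log2 change was -0.20 (SE 0.09, 95% interval -0.41 to 0.01, adjusted p = 0.328), with -0.25 within slide 1 and -0.18 for slide 2. Bmpr1a, the type I receptor also called ALK3, had levels of 1.95, 2.33 and 2.09 in si-lncMGPF against 2.15, 2.36 and 2.31 in si-NC. The groups overlap, because si-lncMGPF replicate 2 lay among the si-NC arrays. Its log2 change was -0.15 (SE 0.13, 95% interval -0.46 to 0.15, adjusted p = 0.567), at -0.33 within slide 1 and -0.06 for slide 2. After normexp the log2 change of Bmpr1a was -0.25 (limma, adjusted p = 0.356), with -0.30 within slide 1 and -0.23 for slide 2. The groups then did not overlap, narrowly, with the highest si-lncMGPF array at 2.04 and the lowest si-NC array at 2.06.

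Acvr1, the type I receptor ALK2, had 2 probes to the same transcript. The brighter one had levels of 2.69, 3.05 and 2.98 in si-lncMGPF against 2.87, 2.97 and 2.83 in si-NC, with the lowest and the highest arrays both in si-lncMGPF. Its log2 change was 0.02 (SE 0.12, 95% interval -0.27 to 0.31, adjusted p = 0.946), but -0.20 within slide 1 and 0.13 for slide 2. The other probe had 1.07, 1.14 and 1.18 in si-lncMGPF against 0.73, 1.14 and 0.89 in si-NC, where si-NC replicate 2 overlapped si-lncMGPF. It gave 0.21 (SE 0.12, 95% interval -0.09 to 0.50, adjusted p = 0.43), with 0.15 and 0.24 on the 2 slides. Within slide 1 the 2 Acvr1 probes thus differ in sign, so no direction can be given for this receptor.

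Of the ligands Bmp4 alone gave a measurable signal. Bmp4, which in muscle precursors favours proliferation over differentiation, had levels of 2.74, 2.71 and 3.03 in si-lncMGPF against 2.71, 2.76 and 2.74 in si-NC. The si-lncMGPF arrays overlapped si-NC apart from replicate 3, which was the highest of all. The log2 change was 0.09 (SE 0.11, 95% interval -0.18 to 0.36, adjusted p = 0.705), from -0.00095 within slide 1 to 0.13 for slide 2. Without si-lncMGPF replicate 3 the log2 change of Bmp4 was -0.014. A second Bmp4 probe to the same transcript was not well above background on any array, at 4.17, 5.59 and 8.32 units in si-lncMGPF and 3.79, 2.91 and 3.46 units in si-NC. The 2 probes disagree on whether Bmp4 is detected, and the cause was not tested.

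Bmp2, the ligand that diverts C2C12 cells to bone, was not well above background on any of the 6 arrays. Its processed signal was 3.39, 4.39 and 4.34 units in si-lncMGPF and 3.21, 2.45 and 2.89 units in si-NC. Bmp6 was not above background on any array either, at 3.47, 3.79 and 3.96 units in si-lncMGPF and 3.09, 3.63 and 2.90 units in si-NC. The lowest signal that counted as well above background was 16.3 to 19.4 units on the si-lncMGPF arrays and 11.4 to 14.5 units on the si-NC arrays. Readings at this level have no order, although the slide 2 arrays, where control spots also read higher, gave the 2 highest for each of these 3 probes. No fold is given for them, and a transcript too rare for the array was not detectable rather than shown to be absent.

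**Figure D3:**
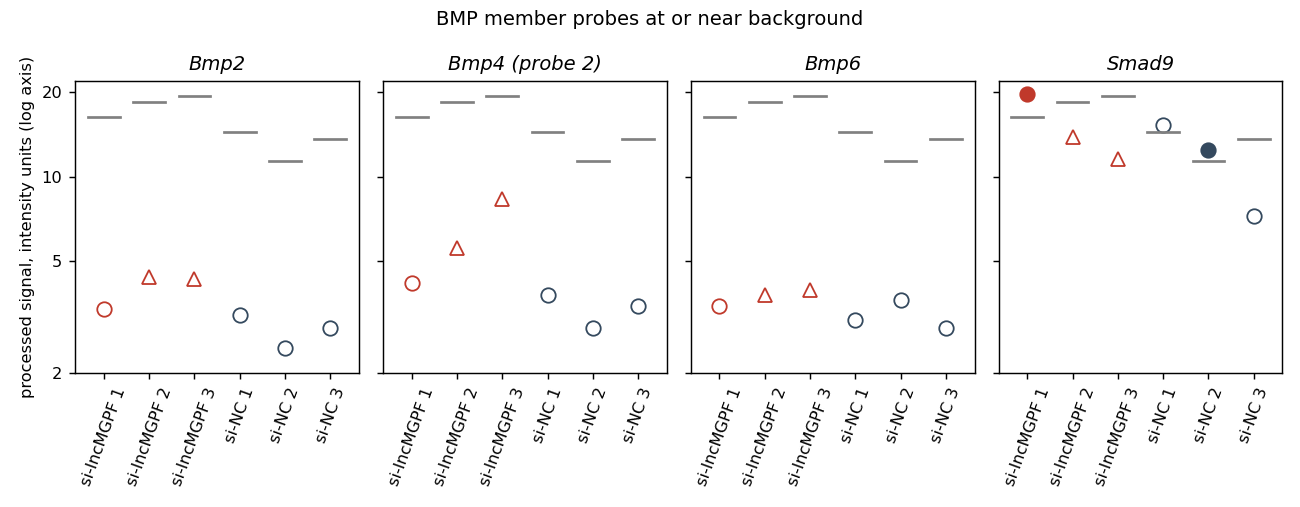
Processed signal in intensity units, on a log axis, of the 4 member probes that were not tested, by array. Filled points were well above background and open ones not, circles are slide 1 and triangles slide 2, and the grey dashes mark the lowest signal that counted as well above background on that array. Bmp2, Bmp6 and the second Bmp4 probe lie below the dash on every array, and Smad9 lies above it on 3 arrays, on 2 of which it was flagged as well above background.

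Grem1 encodes gremlin, a secreted protein that binds BMP2 and BMP4 and keeps them from their receptors. Its levels were 1.28, 1.51 and 1.48 in si-lncMGPF against 1.32, 0.98 and 1.21 in si-NC. The slide 2 arrays were the 2 highest of all, and si-lncMGPF replicate 1 lay below si-NC replicate 1. The log2 change was 0.25 (SE 0.12, 95% interval -0.04 to 0.55, adjusted p = 0.362), with 0.11 within slide 1 and 0.33 for slide 2. After normexp the log2 change of Grem1 was 0.15 (adjusted p = 0.475). The part of slide in this difference was not tested.

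The sign of the change was the same on slide 1 and slide 2 for 6 of the 8 probes, as it was for 54.1% of all tested probes. The exceptions were Bmp4 and the brighter Acvr1 probe. Both slide values share the si-NC arrays. For Smad6, Smad7 and Bmpr2 all si-lncMGPF arrays lay below all si-NC arrays, as for 13.4% of all tested probes. That alone makes the change negative on both slides. The changes of these genes were -0.44 to -0.18, and the median of all probes of like brightness was between -0.11 and 0.06 on each slide. The spread of those probes was not compared. The 3 genes whose pattern over the 6 arrays was most like that of Smad6 among 14264 named genes were Ctdsp1, Tns2 and Arhgap23, with Pearson's r of 0.995, 0.993 and 0.991. These values describe 6 arrays in 2 groups and carry no test.

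**Figure D4:**
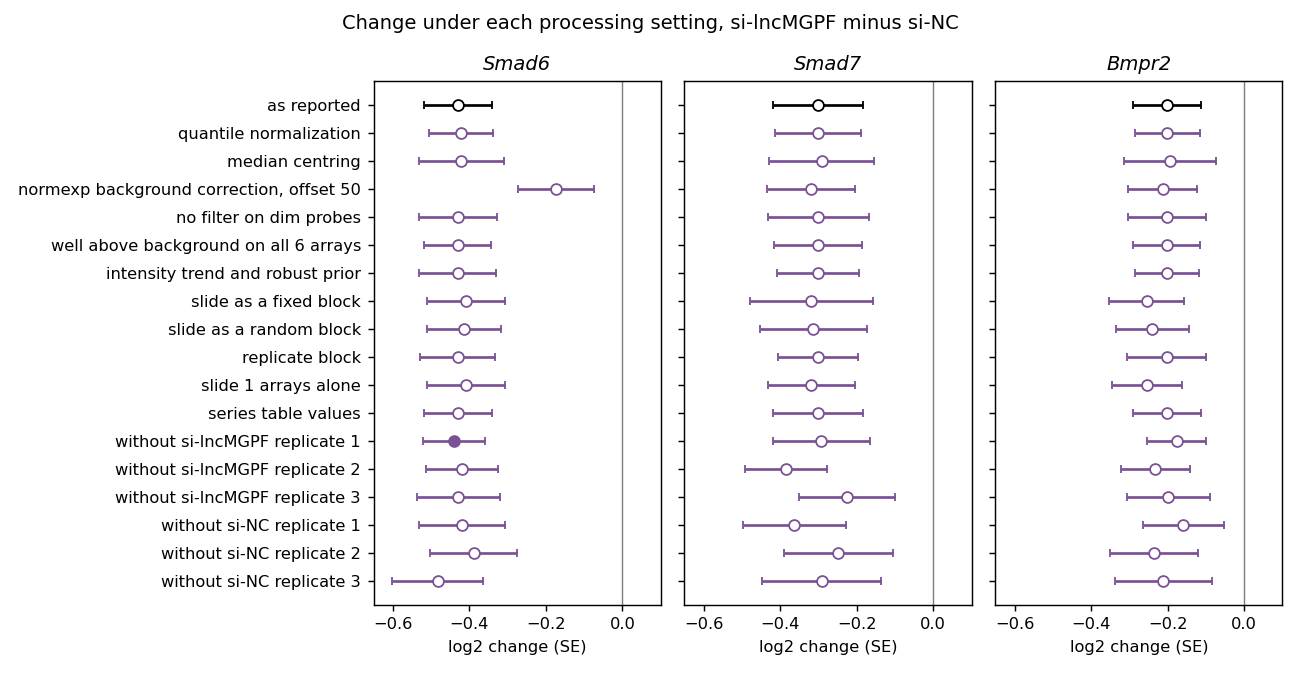
Log2 change (si-lncMGPF minus si-NC) with SE of Smad6, Smad7 and Bmpr2 as reported and under each of 17 alternatives, with filled points for an adjusted p below 0.05. All points lie below 0, the Smad6 value after normexp (-0.17) stands apart from the other Smad6 values (-0.48 to -0.39), and 1 point is filled, Smad6 without si-lncMGPF replicate 1.

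The rest of the pathway was read through 59 other genes. All had a probe, and 42 were tested, 40 of them above background on all 6 arrays. None passed over all probes, where 0.147% of named genes did. At an unadjusted p below 0.05 stood 2 with a positive and 5 with a negative change (among the 5 is Chrdl1, which entered the test through si-NC alone), against 6.04% and 8.14% of named genes (14.2% in all). The median log2 change was 0.005 over the 42 genes (22 positive, 20 negative) and 0.02 over all named genes tested. The 20 include Chrdl1 and Bmp10, which both entered the test through si-NC alone.

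Of the 12 other genes of ligands or their processing 5 were tested, with 1 positive and 4 negative changes. Among the 4 is Bmp10, whose si-lncMGPF readings are in part background. Bmp8a, a ligand known from germ cells, had levels of -1.81, -2.74 and -2.59 in si-lncMGPF against -1.61, -1.36 and -1.47 in si-NC. The groups did not overlap, and the change was -0.90 (SE 0.24, adjusted p = 0.222), at -0.33 within slide 1 and -1.18 for slide 2. Its close relative Bmp8b had levels of -5.24, -4.91 and -4.53 in si-lncMGPF against -5.80, -5.33 and -5.26 in si-NC. The change was 0.57 (limma, adjusted p = 0.288), at 0.23 within slide 1 and 0.74 for slide 2. On slide 2 its signal was close to the lowest that counted as well above background, 18.4 and 19.4 units. The part of scaling by the dimmer slide in this change was not tested. The sequences of Bmp8a and Bmp8b are near-identical, so which of them each probe reads is uncertain. Bmp10, a heart ligand, was above background on 1 of 3 si-lncMGPF arrays and on all si-NC arrays, and so entered the test through si-NC alone. Its levels were -3.90, -5.30 and -5.31 in si-lncMGPF against -4.27, -3.93 and -4.06 in si-NC. The 1 si-lncMGPF array that measured it, on slide 1, was the highest of all 6, and both slide 2 values are background readings, so no change is given. Bmp3, Bmp5, Bmp7, Bmp15, Gdf2, Gdf6 and Gdf7 were above background on none.

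Of 8 receptors and co-receptors 7 were tested (3 positive, 4 negative). Rgmb, a co-receptor that strengthens BMP binding, had levels of 0.34, -0.09 and -0.11 in si-lncMGPF against 0.57, 0.56 and 0.50 in si-NC. All si-lncMGPF arrays were lower, those of slide 2 most, with a change of -0.50 (SE 0.14, adjusted p = 0.223), at -0.21 within slide 1 and -0.64 for slide 2. Its relatives Rgma and Hjv had -0.17 and -0.16 (adjusted p = 0.478 and 0.829). The 3 Smads that carry or share the signal gave small values on their brightest probes, 0.16 for Smad1, 0.06 for Smad5 and 0.01 for Smad4, with adjusted p from 0.714 to 0.972. For Smad1 and Smad5 a second probe had the opposite sign (-0.16 and -0.09). The second Smad4 probe had 0.30 (SE 0.24, limma, adjusted p = 0.558), at 0.68 within slide 1 and 0.10 for slide 2. For each of these Smads the 95% intervals of its probes overlap, and the difference between probes was not tested.

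Extracellular antagonists held 10 tested genes of 15 (3 positive, 7 negative). Among the 7 is Chrdl1, which entered the test through si-NC alone. Fst, follistatin, which binds activins and myostatin and also BMPs, had levels of 0.38, 0.30 and 0.31 in si-lncMGPF against 0.94, 1.11 and 1.04 in si-NC. The groups lay well apart, with a log2 change of -0.70 (SE 0.09, adjusted p = 0.0824), at -0.65 within slide 1 and -0.72 for slide 2. With an intensity trend and robust prior, Fst was the 1 gene of this list that passed, where 0.0852% of all tested probes did. When each gene was the mean of its probes and p-values were adjusted over genes, it passed too (adjusted p = 0.0392), as 0.238% of named genes did. Chrdl1, a chordin-like BMP binder, was above background on 1 of 3 si-lncMGPF arrays and on all si-NC arrays. Its levels were -5.18, -7.01 and -6.35 in si-lncMGPF against -4.24, -4.57 and -4.57 in si-NC. The array that measured it in si-lncMGPF, on slide 1, differed from the si-NC mean by -0.72 on the log2 scale, and the slide 2 values are background readings, so no change over all arrays is given. Dand5, a relative of gremlin, had -0.79 (limma, adjusted p = 0.305), at -0.73 within slide 1 and -0.82 for slide 2. Its si-lncMGPF values ran from -3.53 to -3.40. Of its si-NC arrays, replicate 1 lay among these values at -3.47, and replicates 2 and 3 lay higher, at -2.18 and -2.38. Intracellular and membrane inhibitors, 7 tested of 8, had no member below an unadjusted p of 0.05. Smurf2 and Smurf1, ubiquitin ligases that work with the inhibitory Smads, had 0.30 and -0.12, and the phosphatase gene Ppm1a had 0.29 (limma, adjusted p from 0.394 to 0.621). Smurf2 had 0.82 within slide 1, which rests on 1 si-lncMGPF array, and 0.04 for slide 2. For Ppm1a these values were 0.57 and 0.15, and for Smurf1 -0.12 and -0.13.

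Target genes showed 7 positive and 3 negative changes among 10 tested of 13. Id1, the usual readout of BMP signalling, had levels of 0.47, 0.98 and 0.86 in si-lncMGPF against 0.70, 0.70 and 0.62 in si-NC. The lowest array and the 2 highest were all si-lncMGPF, and the change was 0.10 (SE 0.14, 95% interval -0.24 to 0.44, adjusted p = 0.749), from -0.20 within slide 1 to 0.25 for slide 2. Id2 had 0.25 (adjusted p = 0.506), with -0.11 and 0.42 on the slides. Id3 had -0.20 (adjusted p = 0.799), with 0.53 within slide 1 and -0.56 for slide 2, the opposite order. The 3 Id genes thus shared no direction on either slide. Msx1, a homeobox gene induced by BMP, was the 1 target of the 10 without overlap, where 22.4% of named genes had none, at -2.16, -2.26 and -2.11 in si-lncMGPF against -2.57, -2.43 and -2.42 in si-NC. Its log2 change was 0.30 (SE 0.09, adjusted p = 0.238), at 0.31 within slide 1 and 0.29 for slide 2. The osteoblast regulator Sp7 and Id4 were above background on no array.

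**Figure D5:**
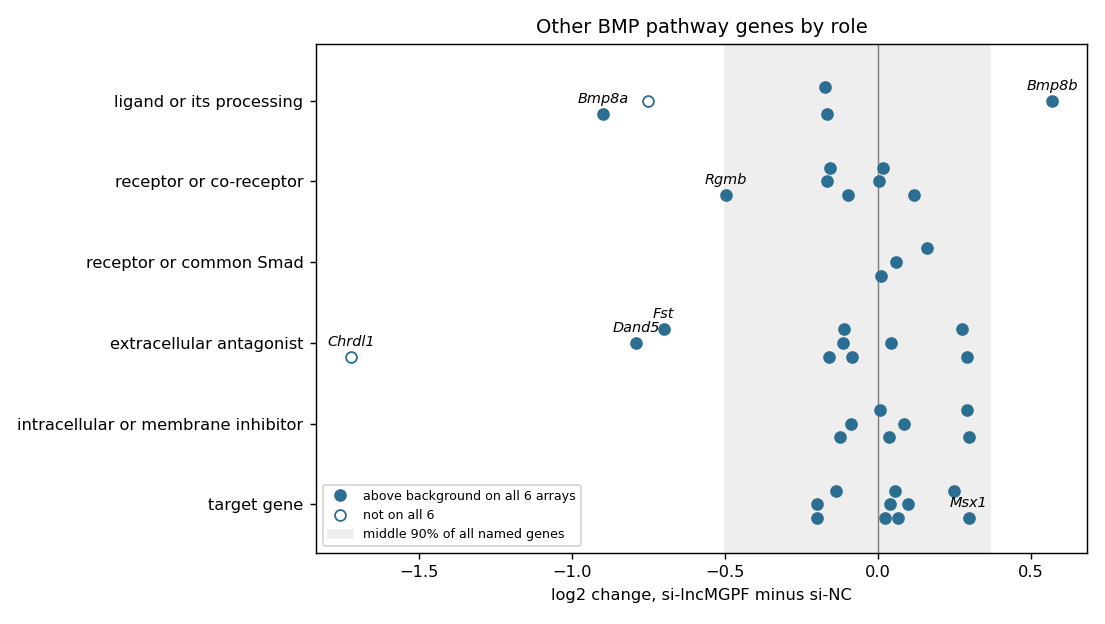
Log2 change (si-lncMGPF minus si-NC) of the 42 tested pathway genes outside the 10 members, by role, 1 point a gene on its brightest probe. Open points were not above background on all 6 arrays, the grey band holds the middle 90% of all named genes (-0.50 to 0.37), and genes with an unadjusted p below 0.05 are named. Most points lie within the band, and those outside it are Bmp8a, Dand5, Fst and Bmp8b and, as open points that rest in part on background readings, Chrdl1 and Bmp10.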

How the data were processed

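Total RNA of the 6 C2C12 samples carried Cy3, per the labels, and was read on Agilent mouse arrays of 1 colour. The scanner tables that the authors deposited hold each spot's intensity as processed by Feature Extraction 11.0.1.1, per the file headers, which report background-subtraction and detrending statistics. In the series table the deposited intensity was the same at 44397 of 44397 spots on each array, compared exactly. Flags for background, saturation and outliers are also deposited. Spots with an outlier flag were left out (117 to 134 per array), and none was saturated. Signals were divided by the array's 75th percentile over non-control spots and taken to log2, which hides any shift of most transcripts in 1 direction. Tested were probes flagged well above background throughout si-lncMGPF, throughout si-NC, or both (24661 of 39429). Accessions were matched to RefSeq (GRCm38.p6) for names, and the array's own build is mm9, so array coordinates are not given. The comparison used lmFit and eBayes of limma 3.58.1 (R 4.3.3) without covariates and with Benjamini-Hochberg adjustment. It was also run on simulated data with independent noise for each probe and no difference between slides. That run cannot show how the fit behaves where slide is partly tied to group, as here. Slides were told apart by scan identifiers. For a gene with several probes the brightest stands for it. Alternatives covered scaling, background, filter, prior, blocks and left-out arrays. Named were all member probes, the 3 largest changes in each role, Id1 to Id3, and the 3 genes most like Smad6 in pattern. The members and lists were chosen with earlier results of these data known. Python 3.11.15 and matplotlib 3.10.9 were used for sequences and figures. The number of arrays limits precision.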

Additional observations from a re-analysis of the deposited data

How the results depend on the processing

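The alternatives were quantile normalization, median centring, normexp with an offset of 50 (on median spot signals), no filter on dim probes or a stricter one, a robust prior with intensity trend, slide as a fixed or random block, replicate number as a block, slide 1 arrays alone, the series table, and dropping each array in turn, 17 in all, with probe means per gene as a further one for the pathway list. Smad6, Smad7, Bmpr2, Bmpr1a, Grem1 and the dimmer Acvr1 probe kept their direction in all 17 alternatives, but not all kept their size. Bmpr1a spanned -0.26 (without si-lncMGPF replicate 2) to -0.06 (without si-lncMGPF replicate 1) when arrays were left out, Grem1 0.16 (without si-NC replicate 2) to 0.33, and the dimmer Acvr1 probe 0.11 (without si-NC replicate 1) to 0.32 (without si-NC replicate 2). The brighter Acvr1 probe turned to -0.061 with normexp, -0.20 with slide as a fixed block and on slide 1 alone, -0.13 with slide as a random block, and spanned -0.052 to 0.13 when arrays were left out. Bmp4 turned to -0.00095 with slide as a fixed block and on slide 1 alone, and spanned -0.014 to 0.15 when arrays were left out. Over all probes the count passing, 26 as reported, was 6 with quantile normalization, 8 with normexp, 0 without a filter (5277 at an unadjusted p below 0.05), 10 with slide as a fixed block, 1 on slide 1 alone, and 0 to 4105 when arrays were left out (limma). The count was 4105 without si-lncMGPF replicate 1, which leaves si-lncMGPF on slide 2 alone. Member probes passing numbered 0 to 1 and other pathway genes 0 to 5 when arrays were left out, those 5 being Rgmb, Chrdl1, Bmp8a, Bmp10 and Fst without si-lncMGPF replicate 1. Chrdl1 and Bmp10 are not above background on the si-lncMGPF arrays that then remain. Of other settings, the intensity trend and the gene means each passed 1 pathway gene, Fst. Deviations from the group mean correlated at 0.18, 0.32 and -0.06 between si-lncMGPF and si-NC samples of the same replicate number. Between samples of different numbers the correlations were -0.29 to 0.06, so whether the numbers pair the samples is not settled. With the replicate block 0 probes passed (limma, 4430 at an unadjusted p below 0.05), with 0 members and 0 pathway genes. The causes were not tested. Signal over background limits Bmp2, Bmp6 and Smad9, which were not tested.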
